A study of Mus musculus with 6 samples.

Results

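The 9 genes described here make, split or move glycine and serine: the synthesis enzymes Phgdh, Psat1 and Psph, the interconverting enzymes Shmt1 and Shmt2, the serine racemase Srr, the glycine decarboxylase Gldc, and the transporters Slc6a9 and Slc1a4. The rule lists them by name and holds no measured value, but they were chosen with earlier results of these data known. The study had named Slc6a9 in astrocytes and Slc1a4 in neurons from these same cells. All 9 were found among the 17418 genes of the table. The values come from single-cell RNA sequencing with InDrop, a droplet method that tags each mRNA with a unique molecular identifier (UMI), of dissociated cortex from 3 WT and 3 Fmr1-KO mice at postnatal day 5. The study asked how the loss of FMRP, the RNA-binding protein lost in Fragile X syndrome, alters expression in each cell type of the developing cortex. WT mice were FVB.129P2-Pde6b+ Tyrc-ch/AntJ and Fmr1-KO mice were FVB.129P2-Pde6b+ Tyrc-ch Fmr1tm1Cgr/J, so that the Pde6b+ and Tyrc-ch alleles are common to both groups. The Fmr1tm1Cgr allele is constitutive, which means that every cell type of a Fmr1-KO mouse carries it, and mice of both sexes were used. Each mouse is 1 sample. Cells were collected in separate batches with different bead versions: V2 for WT 1, Fmr1-KO 1 and Fmr1-KO 2, and V3.8 for WT 2, WT 3 and Fmr1-KO 3. Batch and bead version cannot be told apart.

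L-serine is made in the brain from a glycolytic intermediate in consecutive steps by Phgdh, Psat1 and Psph, a route known above all from astrocytes. Serine hydroxymethyltransferases convert serine to glycine and hand a carbon unit to folate, Shmt1 mainly in the cytosol and Shmt2 in mitochondria, while Gldc is the decarboxylase of the mitochondrial glycine cleavage system. Srr turns L-serine into D-serine, which, like glycine, is a co-agonist of NMDA receptors. Slc6a9 encodes GlyT1, the transporter that clears extracellular glycine, and Slc1a4 encodes ASCT1, an exchanger of serine and other small neutral amino acids.

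The promoter windows are shown because several of the genes shared a pattern across cell types, given after them. RefSeq windows on GRCm38.p6, from 250 bases before to 50 bases after a start site, were found for 9 of 9 genes, with 12 windows in all. Each was searched on both strands for the letters TGATGNAA (a form of the amino acid response element to which ATF4 binds), for CACGTG (the E-box) and for the NRF1 consensus. TGATGNAA was found in 3.97% of all 32851 windows and, among the 9 genes, in Slc1a4 alone. The NRF1 consensus was found in 2.27% of windows and, among the 9 genes, in Shmt2 alone. CACGTG was found in 7.15% of windows and in none of the 9 genes. The windows of both genes with a match and of Phgdh, the first enzyme of serine synthesis, read as follows, 5′ to 3′ along the gene, with the matching letters in capitals (in Slc1a4 the match lies on the opposite strand).
Slc1a4 (chr11:20332664-20332963, minus strand): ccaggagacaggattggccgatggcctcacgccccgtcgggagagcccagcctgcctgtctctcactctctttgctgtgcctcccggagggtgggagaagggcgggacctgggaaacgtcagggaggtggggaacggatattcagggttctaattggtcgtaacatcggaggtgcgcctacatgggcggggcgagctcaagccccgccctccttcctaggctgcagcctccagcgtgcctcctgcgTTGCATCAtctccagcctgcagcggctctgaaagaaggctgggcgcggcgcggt
Shmt2 (chr10:127522395-127522694, minus strand): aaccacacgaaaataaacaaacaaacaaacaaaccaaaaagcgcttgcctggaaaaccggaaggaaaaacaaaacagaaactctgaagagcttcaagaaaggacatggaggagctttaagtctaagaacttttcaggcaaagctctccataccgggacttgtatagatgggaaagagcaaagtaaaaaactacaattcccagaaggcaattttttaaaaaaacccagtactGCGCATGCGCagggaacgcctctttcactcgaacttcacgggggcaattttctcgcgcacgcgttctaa
Phgdh (chr3:98339920-98340219, minus strand): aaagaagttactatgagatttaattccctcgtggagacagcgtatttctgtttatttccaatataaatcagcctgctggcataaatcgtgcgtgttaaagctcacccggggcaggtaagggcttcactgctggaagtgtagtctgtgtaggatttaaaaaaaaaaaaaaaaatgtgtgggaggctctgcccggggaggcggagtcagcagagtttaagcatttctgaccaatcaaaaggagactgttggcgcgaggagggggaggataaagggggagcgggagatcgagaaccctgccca

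The table held 18393 cells in 17 libraries, of which 1113 that the authors marked as doublets were left out. Totals per mouse without doublets ran from 7909181 to 20629134 UMIs. Fmr1 itself, summed over cells without doublets, stood at 68.4 to 74.1 CPM (UMIs of the gene per 1000000 UMIs summed) in the 3 WT mice and at 16.1 to 19.9 CPM in the 3 Fmr1-KO mice. A disrupted allele can still be transcribed and reads from its 3′ end counted, but the source of the Fmr1 UMIs in Fmr1-KO mice was not tested. Each of 11 marker lists was highest in the authors' subtype that it names. Libraries of the same mouse shared 3307 pairs of cell barcodes, of which 93.3% carried the same subtype, against 16.7% of 468 pairs between mice. In all, 4561 cells (24.8%) shared a barcode within their mouse. Keeping 1 cell per barcode and mouse (14836 cells) left the number of the 9 genes called between genotypes at 0. Levels below are CPM of UMIs summed per mouse and subtype, given as mean ± SD over mice with at least 10 cells. They are compared across subtypes gene by gene, with no test, since the subtypes were clustered on these same cells.

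The first 2 enzymes of serine synthesis were high in both astrocyte subtypes but parted in other cells. Phgdh (chromosome 3, 98313170 to 98339990, minus strand, GRCm38) was at 788 CPM ± 102 (SD, n = 6) in Astrocytes_2 and 629 CPM ± 85.1 (n = 6) in Astrocytes_1. All 6 mice had more in Astrocytes_2. Microglia came next, at 234 CPM ± 49.8, then Ganglionic cells, the neuronal subtype highest in markers of dividing cells, at 214 CPM ± 37.4, and the ranges of these neighbours overlapped. Microglia of every mouse lay well below Astrocytes_1, with no overlap. The level was 21.9 CPM ± 11.8 in Excitatory neurons, 17.3 CPM ± 8.27 in Interneurons and 10.6 CPM ± 5.57 in Endothelial cells.

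Phgdh in microglia was measured beside astrocyte RNA in the same sums. Relative to Astrocytes_1 of the same mouse, Phgdh in microglia averaged 37.05% while the sum of 8 astrocyte markers averaged 1.38% (range 0.755% to 1.95%, n = 6 mice). In Endothelial cells Phgdh averaged 1.69% and the same markers 2.36%. A UMI of Phgdh was found in 43.3% of microglia, 76.8% of Astrocytes_1 and 4.03% of Endothelial cells. The median cell of these subtypes held 2655.5, 3755 and 3687 UMIs. With every cell thinned to 700 UMIs (41 shallower cells left out) the shares were 12.9%, 35.6% and 0.981%.

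Psat1 (chromosome 19, 15904678 to 15947337, minus strand), the aminotransferase of the route, was as high in Oligodendrocytes as in astrocytes. Its means were 608 CPM ± 126 in Oligodendrocytes, 570 CPM ± 26.1 in Astrocytes_2 and 496 CPM ± 64.1 in Astrocytes_1, with overlapping ranges. Oligodendrocytes were above Astrocytes_2 in 3 of 6 mice, so that this order does not exceed the spread. In WT 1, WT 2 and WT 3, Oligodendrocytes held 498, 588 and 803 CPM of Psat1, and in Fmr1-KO 1, 2 and 3 they held 615, 457 and 688 CPM. Phgdh in the same cells was at 48.7 CPM ± 11.7, which was 7.91% of its Astrocytes_1 level, whereas Psat1 was at 122.4% of its own. Ependymal cells followed for Psat1 at 318 CPM ± 35.4, and OPC_1, the main oligodendrocyte precursor subtype, at 270 CPM ± 30.7. Neurons also held Psat1, with 121 CPM ± 49.8 in Excitatory neurons against 35.9 CPM ± 9.76 in Interneurons.

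Psph (chromosome 5, 129765558 to 129787449, minus strand), the phosphatase that releases serine, was highest in Ependymal cells (249 CPM ± 61.7) and Astrocytes_2 (246 CPM ± 48.3). Ependymal cells were the higher of these in 2 of 6 mice. Astrocytes_1 held 171 CPM ± 26.8, below Astrocytes_2 in all 6 mice, although the ranges overlapped. No other subtype came above 68.8 CPM. Microglia, next after the astrocytes for Phgdh, held 13.9 CPM ± 7.55 of Psph, or 7.80% of the Astrocytes_1 level.

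Gldc (chromosome 19, 30098447 to 30175429, minus strand), the decarboxylase of glycine cleavage, was likewise highest in astrocytes. It stood at 220 CPM ± 37.3 in Astrocytes_2 and 189 CPM ± 12.7 in Astrocytes_1, higher in Astrocytes_2 in 4 of 6 mice. Ependymal cells, OPC_2, OPC_1 and Ganglionic cells formed a middle group at 89.8, 87.7, 81.6 and 64.8 CPM, with each neighbour's range overlapping the next. The OPC_2 level rested on 23 UMIs. In Endothelial cells 6 UMIs were counted over 6 mice (0.758 CPM ± 0.905). Among its partners in the cleavage system, Gcsh, the lipoyl carrier protein, was highest in Astrocytes_1 (317 CPM) and Amt, the aminomethyltransferase, likewise (67.7 CPM), whereas Dld, a dehydrogenase shared with other enzyme complexes, was highest in Oligodendrocytes (83.2 CPM) and at 64.1 CPM in Astrocytes_1.

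**Figure D1:**
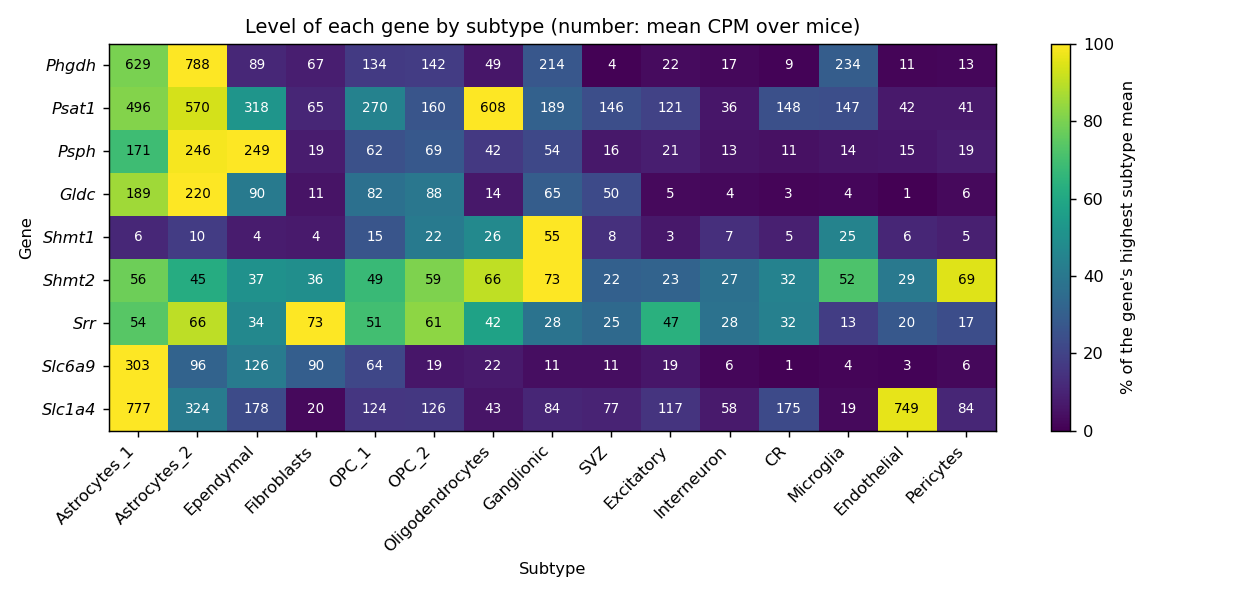
Heat map of the 9 genes (rows) over 15 subtypes (columns). Each number is the mean CPM over mice with at least 10 cells and the colour is the percent of that gene's highest subtype mean. Phgdh, Psat1, Psph and Gldc are bright in both astrocyte columns, Slc1a4 is at 777 CPM in Astrocytes_1 and 749 CPM in Endothelial cells, and Shmt1 peaks in Ganglionic cells at 54.8 CPM.

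The hydroxymethyltransferases did not share the astrocyte pattern. Shmt1 (chromosome 11, 60788104 to 60811718, minus strand) was highest in Ganglionic cells, at 54.8 CPM ± 11.4, above Oligodendrocytes (25.7 CPM ± 14.4) in 6 of 6 mice, although the ranges overlapped. Ganglionic cells of the WT mice held 47.0, 37.0 and 63.5 CPM and those of the Fmr1-KO mice 59.1, 53.7 and 68.3 CPM. Microglia were at 24.5 CPM ± 5.29. Astrocytes_1 held 6.06 CPM ± 1.16 and Excitatory neurons 3.46 CPM ± 1.92, the lowest of the 15 subtypes. The 3′ end of Shmt1 overlaps Smcr8 on the other strand (60777524 to 60788287). No source used here says whether reads were counted by strand. Smcr8 was at 33.5 CPM in microglia, 12.3 CPM in Excitatory neurons, 11.9 CPM in Ganglionic cells and 9.61 CPM in Astrocytes_1. The levels of Shmt1 are uncertain for that reason. Of the 12 folate enzymes listed, Mthfd2, Mthfd2l and Tyms were among those also highest in Ganglionic cells, at 103, 36.4 and 95.9 CPM, while Mthfd1 and Aldh1l1 were highest in Astrocytes_1, at 119 and 474 CPM. The sum of the list was 642 to 769 CPM in Astrocytes_1 and 483 to 670 CPM in Ganglionic cells, with overlap.

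Shmt2 (chromosome 10, 127517123 to 127522444, minus strand) was found at similar levels in many cells, from 22.3 CPM in SVZ cells to 72.6 CPM ± 7.82 in Ganglionic cells. The SVZ level rested on 4 UMIs. Ganglionic cells exceeded Pericytes (69.1 CPM ± 26.7) in 3 of 6 mice, and the ranges of all neighbours in the order over 15 subtypes overlapped. The 3′ end of Shmt2 overlaps that of Ndufa4l2 on the other strand (127514967 to 127517154), and no source used here says whether reads were counted by strand. Ndufa4l2 was at 784 CPM in Pericytes and 3.13 CPM in Astrocytes_1. The level of Shmt2 in Pericytes is uncertain for that reason.

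Srr (chromosome 11, 74906359 to 74925948, minus strand), which makes D-serine, was low and broad. It ranged from 13.2 CPM ± 5.41 in microglia to 73.4 CPM ± 40.0 in Fibroblasts, a subtype with values in 3 mice. Astrocytes_2 held 66.1 CPM ± 11.8, Astrocytes_1 54.4 CPM ± 5.80 and Excitatory neurons 46.5 CPM ± 14.6, with overlapping ranges. A UMI of Srr was found in 20.4% of Astrocytes_1 and 12.7% of Excitatory cells, and after thinning in 3.85% and 2.65%. The 3′ end of Srr overlaps Tsr1 on the other strand, which was at 23.1 CPM in Astrocytes_1 and 28.6 CPM in Excitatory neurons, so that its level is uncertain in the same way.

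The transporters differed from each other in where they were found. Slc6a9 (chromosome 4, 117834506 to 117875198, plus strand) was at 303 CPM ± 73.0 in Astrocytes_1, above every other subtype with no overlap with the next, Ependymal cells (126 CPM ± 25.2). Astrocytes_2 (96.4 CPM ± 22.6) held 33.1% of the Astrocytes_1 level, while the same subtype held 125.6% for Phgdh and 116.5% for both Psat1 and Gldc. Fibroblasts held 90.3 CPM ± 15.1 (n = 3) and OPC_1 64.3 CPM ± 8.73. Interneurons, microglia and Endothelial cells were at 5.61, 4.20 and 2.92 CPM. The 3′ end of Slc6a9 lies within B4galt2 on the other strand, which was at 38.6 CPM in Astrocytes_1 and 91.5 CPM in Excitatory neurons.

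Slc1a4 (chromosome 11, 20302180 to 20332713, minus strand) was as high in Endothelial cells as in Astrocytes_1. Its means were 777 CPM ± 77.3 and 749 CPM ± 123, and Astrocytes_1 were the higher in 4 of 6 mice. A UMI was found in 78.2% of Astrocytes_1, 77.3% of Endothelial cells and 5.43% of microglia, and after thinning in 39.5%, 36.6% and 1.74%. Both were above Astrocytes_2 (324 CPM ± 68.7) without overlap. Among neurons it was at 117 CPM ± 33.7 in Excitatory cells, 84.3 CPM ± 22.9 in Ganglionic cells and 57.6 CPM ± 30.0 in Interneurons, and Excitatory cells exceeded Interneurons in 5 of 6 mice. Endothelial cells held other amino acid carriers that Astrocytes_1 nearly lacked: Slc38a5 was at 1151 CPM against 3.77 CPM, and Slc7a8 at 315 CPM against 1.96 CPM. Slc7a10, a serine and glycine exchanger, showed the reverse, at 233 CPM in Astrocytes_1 and 2.89 CPM in Endothelial cells.

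**Figure D2:**
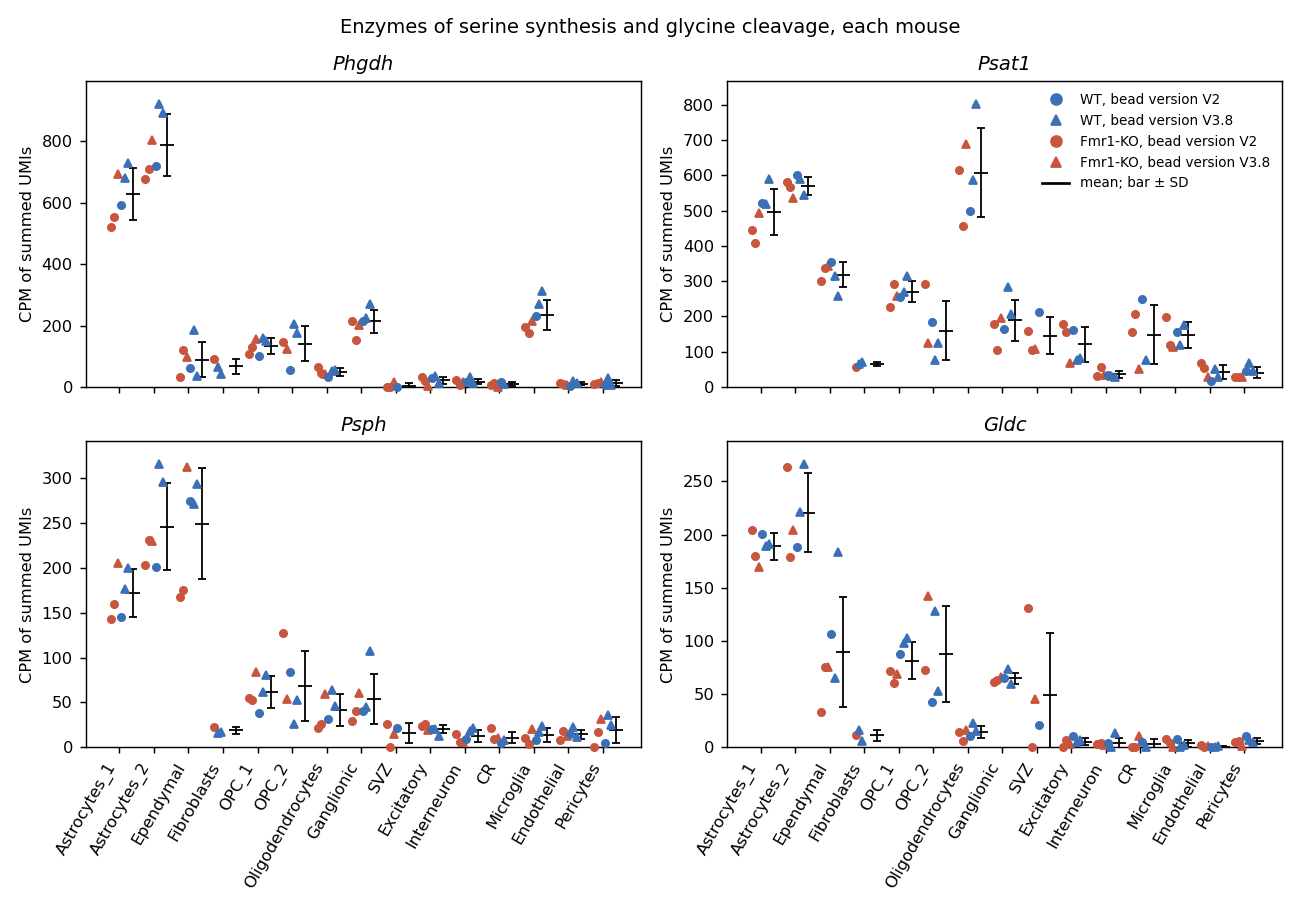
Level of Phgdh, Psat1, Psph and Gldc in each mouse (points, CPM of summed UMIs, vertical axis from 0) by subtype, with mean ± SD beside them. Circles are mice of bead version V2 and triangles of V3.8. All 6 mice of Astrocytes_1 lie above all 6 of microglia for each gene, and Psat1 in Oligodendrocytes spans 457 to 803 CPM.

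Likeness of pattern was measured as Pearson's correlation of log2(CPM + 1) over the 14 subtypes with at least 100 cells, among 12328 genes with at least 20 CPM in one of them. The points share their 6 mice, and the values are a description. Gldc was most like Hepacam (r = 0.98), Cbr3 (0.97) and Nr2e1 (0.95), and Psph most like Dbi (0.98), Slc35d1 (0.95) and Plcd4 (0.95). Slc6a9 was most like Klf15 (0.92), Ephx2 (0.90) and Kcnn3 (0.90). For Phgdh the leading genes were Soat1, Lap3 and Naprt (0.91, 0.90 and 0.89), and for Psat1 they included Kcnj10 and Gcsh (0.91 and 0.88). Shmt1 was most like Rbbp4, Hnrnpu and Nme4 (0.92, 0.91 and 0.91), and Shmt2 to Fgfr1op2, Rrp8 and Atp5g2 (0.92, 0.83 and 0.82). Srr was most like Ntrk3, Tmem9 and Clcn2 (0.88, 0.85 and 0.85), and Slc1a4 most like Nedd9, Prnp and Mcc (0.83, 0.82 and 0.81). Within the 9 genes, the highest value was 0.93 between Psph and Gldc, and Slc1a4 reached at most 0.44, with Psph.

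Between genotypes, none of the 9 genes passed the test in any cell type. Each type with at least 100 cells per genotype was fitted with edgeR's quasi-likelihood test on sums per mouse and a batch covariate. A gene was tested where 15% or more of the cells held a UMI of it, and a call needed an FDR (Benjamini-Hochberg adjusted p) under 0.01 and a fold change of 15% or more. The 11 types were 10 subtypes and all neurons together. This gave 40 tests of the 9 genes out of 99 possible pairs of gene and type. Shmt1 passed the filter in no type, and none of the 9 passed it in Interneurons. Calls numbered 0 of 40, where 0.0141% of all 42575 tests were called, and the lowest FDR was 0.247. At FDR under 0.05 there were again 0, against 0.0188% of all tests. An unadjusted p under 0.05 was reached by 5 of the 40 with edgeR, against 6.07% of all tests with edgeR. These 5 include Slc6a9 in Astrocytes_1 and Slc1a4 in neurons, which the study had named from these same cells. DESeq2 called 0 and gave 2 at that p, and its share over all tests is not given here. All p-values measure the spread between 3 mice per genotype.

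Fold changes were small and more often negative. Log2 fold changes, Fmr1-KO over WT, ranged from -0.46 to 0.53, with a median of -0.09 beside 0.00 for all tests. Of the 40, 30 were below 0 (75%), beside 49.7% of all tests, but the 40 share mice, and the neuron sum contains the Excitatory and Ganglionic cells. In 4 of 40 the genotypes did not overlap, each with Fmr1-KO below WT. Of all tests 7.31% had groups apart, and 4.0% had Fmr1-KO below. Within the batches, 19 of 40 were lower in both and 6 higher in both. The share over all tests is not given beside these counts, so they have no baseline here.

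**Figure D3:**
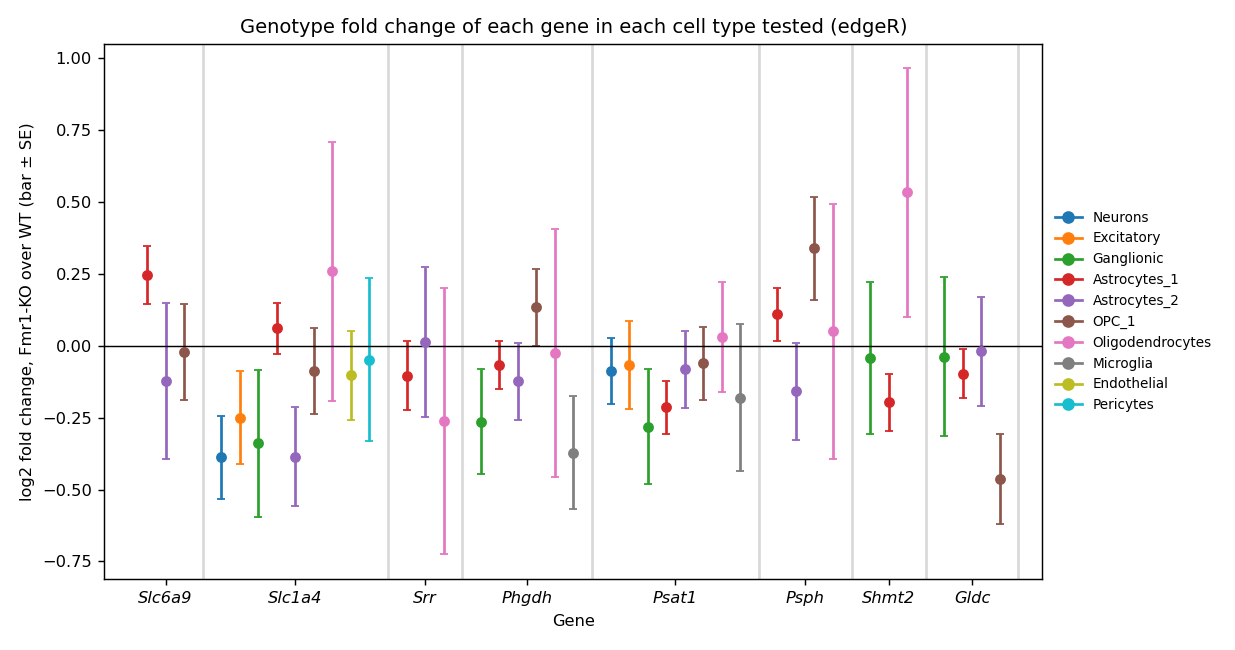
Log2 fold change, Fmr1-KO over WT, of each gene in each cell type tested (points, coloured by type), with bars of ± 1 SE derived from the F statistic of the edgeR test. Values run from -0.46 for Gldc in OPC_1 to 0.53 for Shmt2 in Oligodendrocytes, and 30 of 40 lie below 0. Shmt2 in Oligodendrocytes was at 168, 64.3 and 43.5 CPM in Fmr1-KO 1, 2 and 3 and at 31.1, 37.8 and 49.1 CPM in WT 1, 2 and 3. Its log2 ratio was 1.88 within V2 and 0.003 within V3.8, and Fmr1-KO 1 held 24 Oligodendrocytes.

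Slc6a9 in Astrocytes_1 was at 300, 234 and 247 CPM in WT 1, WT 2 and WT 3 and at 415, 366 and 255 CPM in Fmr1-KO 1, 2 and 3. The Fmr1-KO mice of bead version V2 were the 2 highest of the 6, Fmr1-KO 3 lay among the WT mice, and the groups overlapped. The log2 fold change was 0.25 ± 0.10 (SE, n = 3 per genotype, edgeR FDR = 0.923), beside 4.72% of genes of this type at an unadjusted p under 0.05. It was 0.38 within V2 and 0.08 within V3.8, and ranged from 0.09 without WT 1 to 0.40 without Fmr1-KO 3. The 8 astrocyte markers summed to 16559 to 20031 CPM in WT and 16705 to 21229 CPM in Fmr1-KO in the same sums. In Astrocytes_2 the value was -0.12 ± 0.27 and in OPC_1 -0.02 ± 0.17.

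Psat1 in Astrocytes_1 was at 522, 520 and 590 CPM in the WT mice and at 444, 407 and 495 CPM in the Fmr1-KO mice. Every Fmr1-KO mouse lay below every WT mouse, which was the case for 3.88% of genes of this type. The log2 fold change was -0.21 ± 0.09 (edgeR FDR = 0.923), with -0.29 within V2 and -0.17 within V3.8. In Astrocytes_2 the genotypes overlapped (-0.08 ± 0.14). Phgdh, the enzyme before it, was at -0.07 ± 0.08 in Astrocytes_1, and Psph, the enzyme after it, at 0.11 ± 0.09.

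Gldc in OPC_1 had the smallest p of the 40 tests. It was at 87.7, 98.2 and 103 CPM in the WT mice and at 71.8, 60.8 and 68.9 CPM in the Fmr1-KO mice, with no overlap, as for 4.44% of genes of this type with Fmr1-KO below. The log2 fold change was -0.46 ± 0.16 (edgeR FDR = 0.947), with -0.40 within V2 and -0.54 within V3.8, and these sums rested on 319 UMIs in WT and 196 in Fmr1-KO. The astrocyte markers in OPC_1 overlapped between genotypes, at 1111 to 1343 CPM in WT and 986 to 1424 CPM in Fmr1-KO. Elsewhere Gldc was close to level, at -0.10 ± 0.08 in Astrocytes_1, -0.02 ± 0.19 in Astrocytes_2 and -0.04 ± 0.28 in Ganglionic cells.

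Phgdh was apart between genotypes in microglia and in Ganglionic cells. In microglia it was at 233, 269 and 312 CPM in WT and at 197, 177 and 216 CPM in Fmr1-KO, a log2 fold change of -0.37 ± 0.20 (edgeR FDR = 0.999). In Ganglionic cells the WT mice held 215, 226 and 270 CPM and the Fmr1-KO mice 215, 154 and 202 CPM, with 215.0 in WT 1 and 214.7 in Fmr1-KO 1, and the value was -0.26 ± 0.18 (edgeR FDR = 0.877), from -0.38 to -0.16 with 1 mouse left out, the latter without Fmr1-KO 2. Groups apart with Fmr1-KO below made up 3.72% of genes in microglia and 4.34% in Ganglionic cells. With cells thinned to 700 UMIs each, both values turned to the other direction, at 0.03 in microglia and 0.12 in Ganglionic cells.

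Slc1a4 in all neurons together was at 123, 100 and 86.2 CPM in the WT mice and at 78.0, 104 and 73.0 CPM in the Fmr1-KO mice, and the groups overlapped. The log2 fold change was -0.39 ± 0.14 (edgeR FDR = 0.247), lower within both batches (-0.43 and -0.35). In neurons 16.6% of all genes reached an unadjusted p under 0.05, as Slc1a4 did, against 6.07% over all types. The mix of neurons also differed by cell number. Excitatory cells, in which Slc1a4 is highest among the larger neuronal subtypes, made up 49.5% to 75.3% of neurons in WT and 35.6% to 48.6% in Fmr1-KO. The sums weight each cell by its UMIs, so that these shares of cells are not the shares in the sums. With equal numbers of cells drawn at random (59 per subtype and mouse) from the Excitatory, Interneuron and Ganglionic subtypes the value was -0.41 ± 0.21 (edgeR FDR = 0.995). The median cell of these subtypes held 1274, 2469 and 3311 UMIs, so that equal numbers of cells do not make the mix of the sums equal. Within Excitatory cells alone it was -0.25 ± 0.16, and within Ganglionic cells -0.34 ± 0.25.

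Slc1a4 in Astrocytes_2 was at 346.5, 446 and 292 CPM in WT and at 310, 304 and 244 CPM in Fmr1-KO, with overlap, and its log2 fold change was -0.39 ± 0.17 (edgeR FDR = 0.99). It was -0.17 without Fmr1-KO 3, -0.22 without WT 2 and -0.62 without WT 1. The 6 markers of dividing cells summed to 238 to 482 CPM in WT and 76.9 to 229 CPM in Fmr1-KO in these sums, without overlap. Their part in the value was not tested. In Endothelial cells, the other site of high Slc1a4, the value was -0.10 ± 0.15 and in Astrocytes_1 0.06 ± 0.09.

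**Figure D4:**
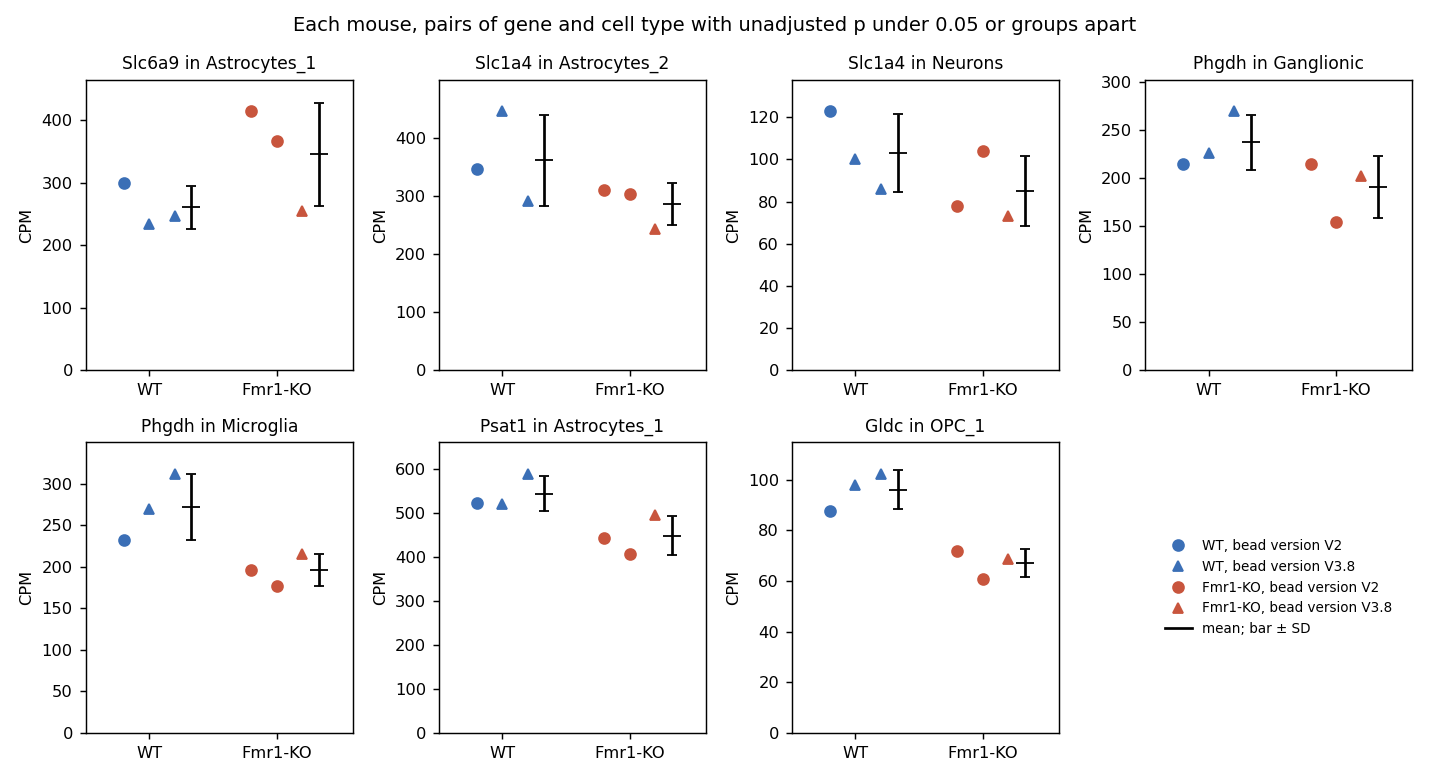
Level in each mouse (points, CPM, axes from 0) for the 7 pairs of gene and cell type with an unadjusted p under 0.05 or with groups apart, with mean ± SD per genotype. Circles are bead version V2 and triangles V3.8. Gldc in OPC_1 lies at 87.7 to 103 CPM in WT and 60.8 to 71.8 CPM in Fmr1-KO, while the genotypes overlap for Slc6a9 and Slc1a4.

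Whether a genotype effect differed between Astrocytes_1 and neurons was tested with a genotype by cell type term and the mouse as a block, over 5547 genes. Of the 9 genes, Slc1a4 and Psat1 passed the 15% filter in both. The difference, Astrocytes_1 minus neurons, was 0.42 ± 0.22 (log2, SE) for Slc1a4 (edgeR FDR = 0.651) and -0.33 ± 0.31 for Psat1 (edgeR FDR = 0.698). Of all genes 0.0% passed an FDR of 0.05 with edgeR, while 6.33% had an unadjusted p under 0.05. The other genes were below the filter in neurons, so that no difference is given for them. Slc6a9 was found in 3.82% of neurons, with 16.3, 14.8 and 12.2 CPM in WT and 11.7, 13.9 and 5.68 CPM in Fmr1-KO, from 117 and 69 UMIs.

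The other 59 pairs of gene and type, in which the gene had a UMI in fewer than 15% of cells, were fitted without the filter. Of these 30 were higher and 29 lower in Fmr1-KO. The groups were apart in 5 of 59, beside 7.09% of all 161559 gene and type pairs, and 7 had an unadjusted p under 0.05, beside 4.78%. The lowest FDR of these (edgeR) was 0.118, for Shmt1 in neurons.

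Shmt1 in neurons was at 12.01, 8.31 and 7.49 CPM in WT and at 18.3, 21.9 and 15.3 CPM in Fmr1-KO, all Fmr1-KO mice above all WT mice, from 76 and 123 UMIs. The log2 fold change was 0.83 ± 0.29 (edgeR FDR = 0.118). Smcr8, which overlaps the 3′ end of Shmt1 on the other strand, was at 13.3 CPM in neurons. Ganglionic cells, in which Shmt1 is highest, made up 10.95%, 13.2% and 12.3% of neurons by cell number in WT. In Fmr1-KO they made up 18.5%, 23.5% and 22.2%, likewise without overlap. The part of this mix in the result was not tested beyond the values within subtypes. Within Ganglionic cells Shmt1 was at 0.36 ± 0.33 (edgeR FDR = 0.984), and in Excitatory cells and Interneurons at 0.01 ± 0.85 and 0.00 ± 0.82.

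Slc6a9 in Pericytes came from 16 UMIs in the WT mice and 1 in the Fmr1-KO mice (5.14, 13.0 and 16.8 CPM against 0, 0 and 0.849 CPM). The 8 astrocyte markers in the same Pericyte sums were at 431, 458 and 190 CPM in WT and 119, 172 and 160 CPM in Fmr1-KO, again without overlap, and their part in the result was not tested. In Ganglionic cells Slc6a9 rested on 17 UMIs in WT and 8 in Fmr1-KO, at 22.4, 16.5 and 11.9 CPM against 7.88, 5.65 and 0 CPM. The markers there overlapped, at 1010 to 1321 CPM in WT and 1031 to 1414 CPM in Fmr1-KO. Psat1 in Pericytes (53.4 CPM against 28.4 CPM, means of 3 mice, from 60 and 44 UMIs) was also apart. So was Srr in Interneurons (33.9 CPM against 21.5 CPM, from 52 and 38 UMIs), and these were the other pairs with groups apart. Psat1 was at 496 CPM in Astrocytes_1, and the part of the astrocyte markers in its Pericyte value was not tested either. Srr in all neurons overlapped, at 35.0, 61.4 and 49.6 CPM in WT and 30.1, 27.8 and 35.4 CPM in Fmr1-KO (log2 fold change -0.48 ± 0.19, edgeR FDR = 0.247). Srr was higher in Excitatory cells (46.5 CPM) than in Interneurons (27.7 CPM) or Ganglionic cells (27.9 CPM). By cell number, the Excitatory share of neurons was lower in every Fmr1-KO mouse than in any WT mouse. The Excitatory share of the summed UMIs, which enters the neuron value, is not given here. The part of this mix in the Srr value was not tested. Phgdh in Excitatory cells overlapped too, at 27.8, 35.9 and 13.4 CPM in WT and 31.4, 18.1 and 4.82 CPM in Fmr1-KO, with 39 UMIs in the Fmr1-KO mice. It had the smallest unadjusted p of the pairs below the filter, with a log2 fold change of -1.05 ± 0.36 (edgeR FDR = 0.552). The value was -0.16 within V2 and -2.24 within V3.8, where Fmr1-KO 3 held 6 UMIs.

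**Figure D5:**
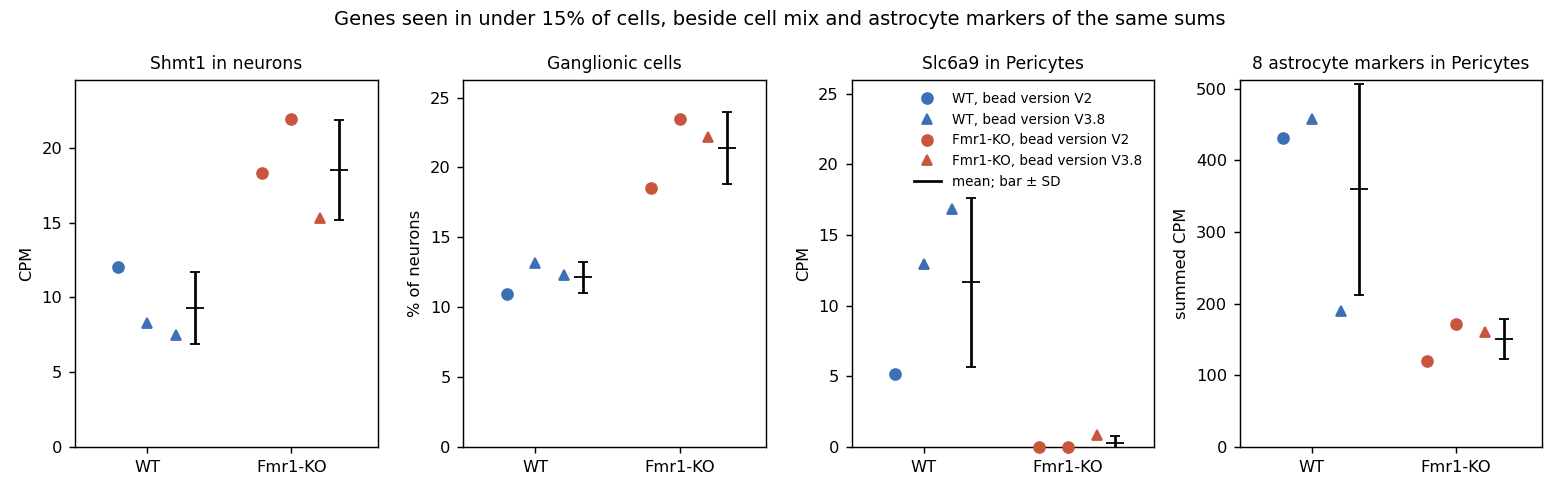
Values per mouse (points, axes from 0) with mean ± SD per genotype: Shmt1 in neurons (CPM), the share of neurons that are Ganglionic (%), Slc6a9 in Pericytes (CPM) and the sum of 8 astrocyte markers in Pericytes (CPM). In each panel the genotypes do not overlap, and Shmt1 and the Ganglionic share are higher in Fmr1-KO while the other values are lower.

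The wider pathway was described from 6 lists. None of their genes reached FDR under 0.05 in any type with edgeR. Carriers of amino acids other than Slc6a9 and Slc1a4 gave 43 tests, of which 28 were higher in Fmr1-KO and 7 had an unadjusted p under 0.05, each of them higher, beside 6.07% of all tests. Of these 7, 2 each lay in Ganglionic, Astrocytes_1 and Endothelial cells and 1 in neurons, where the share of all genes was 16.6%. Slc38a2, a sodium-coupled carrier of small neutral amino acids, was at 97.9, 94.7 and 86.7 CPM in WT and 116, 113 and 108 CPM in Fmr1-KO in Astrocytes_1, with no overlap (as for 2.33% of genes of this type with Fmr1-KO above), a log2 fold change of 0.26 ± 0.08 (edgeR FDR = 0.923). In neurons it was at 0.30 ± 0.10 (edgeR FDR = 0.201), with overlap. Sfxn1, a mitochondrial serine carrier, was at 0.19 ± 0.07 in Astrocytes_1 (edgeR FDR = 0.923). The median of the 4 carriers tested in Astrocytes_1 was 0.19, beside 0.00 over all genes of that type.

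The receptor list gave 12 tests, with 2 higher and 10 lower in Fmr1-KO. In neurons Glrb, the beta subunit of glycine receptors, was at -0.41 ± 0.16 (edgeR FDR = 0.267), and Grin1, the NMDA receptor subunit that binds glycine, at -0.40 ± 0.18 (edgeR FDR = 0.312). Both are more abundant in Excitatory cells than in Ganglionic cells. The Excitatory share of neurons was 49.5% to 75.3% in WT and 35.6% to 48.6% in Fmr1-KO by cell number, which is not the share of the summed UMIs. The part of this mix was not tested. Within Excitatory cells the 4 receptor genes tested had a median of 0.08, with 2 higher and 2 lower. The Atf4 programme gave 19 tests, 10 higher and 9 lower. Atf5 was at -0.38 ± 0.13 in Astrocytes_1 (edgeR FDR = 0.923), where Atf4, a factor known to drive serine synthesis genes, was at -0.03 ± 0.09. Glycine cleavage partners gave 14 tests (10 higher, 4 lower), folate enzymes 11 (5 higher, 6 lower), and enzymes that use glycine or serine 33 (15 higher, 18 lower). An unadjusted p under 0.05 was reached by 1 of the last and by none of the first and second. Beside the members in Astrocytes_1, Gcsh was at -0.07 ± 0.08, Amt at 0.03 ± 0.12, the folate enzymes Mthfd1 at -0.16 ± 0.10 and Aldh1l1 at 0.07 ± 0.09, and the serine users Sptlc1 at -0.16 ± 0.15 and Cbs at 0.05 ± 0.10. The NMDA receptor subunit Grin3a was at -0.03 ± 0.09 there. In neurons Dld was at 0.09 ± 0.12, Slc38a1 at 0.10 ± 0.11, Ptdss1 at -0.12 ± 0.12 and Atf4 at 0.20 ± 0.09.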

How the data were processed

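UMI counts of cortical cells from 6 mice were analysed. The authors aligned reads to mm10 with TopHat2 2.0.14, counted UMIs per RefSeq gene with ESAT, ignored reads with more than 1 position, removed barcodes under 700 UMIs, and deposited the counts without normalization. The deposited annotation gives each cell a subtype and a scran size factor, which is a ratio that the authors set batch by batch. Here counts were summed per mouse and subtype or type, without doublets and without mice under 10 cells of it, and scaled to 1000000 (CPM). Genotypes were compared with edgeR 4.0.16 in R 4.3.3 (TMM, batch as covariate, Benjamini-Hochberg adjustment over all genes of the type), with DESeq2 1.42.0 as an alternative. The SE of a log2 fold change is not an output of edgeR. It was derived as the size of the log2 fold change divided by the square root of the test's F statistic. Ratios within a batch used CPM + 0.5. The fits were tested on simulated data. The 9 genes are named in every subtype, and from the other lists the genes named are those at FDR under 0.05 or, in Astrocytes_1 and neurons, up to 2 per list with the smallest p. Levels of other list genes were picked after their values were seen. Slc6a5, on the carrier list, was not analysed here, and some items that the rule names are not reported here. The 9 genes and the lists were chosen with earlier results of these data known. Of the types tested, Oligodendrocytes had the fewest cells per mouse (24 to 108). The comparison was repeated without the batch term, with a block for the replicate number, without TMM, with filterByExpr and with no filter. It was also repeated with thinned cells, with equal numbers of cells from the Excitatory, Interneuron and Ganglionic subtypes, and without each mouse. The levels were repeated with pooled UMIs or the size factors. Positions and promoter windows are from GENCODE vM21 and RefSeq, both GRCm38.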

Additional observations from a re-analysis of the deposited data

How the results depend on the processing

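The number of the 9 genes called between genotypes stayed at 0 under every alternative run, with a lowest FDR of 0.104 over them, when Fmr1-KO 2 was left out. The sign of the 7 tested gene and type pairs with an unadjusted p under 0.05 or groups apart was the same under every alternative but thinning. With cells thinned to 700 UMIs, Phgdh turned to 0.12 in Ganglionic cells and 0.032 in microglia, and the cause was not tested. Leaving out each mouse gave 0.09 to 0.40 for Slc6a9 in Astrocytes_1, -0.49 to -0.30 for Slc1a4 in neurons and -0.52 to -0.41 for Gldc in OPC_1. Of the other 33 pairs, 22 changed sign under at least 1 alternative. The difference between Astrocytes_1 and neurons ranged over the mice left out from 0.28 to 0.59 for Slc1a4.

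Same-numbered mice were not treated as pairs. Their deviations from the genotype means correlated at 0.19 to 0.78 for number 1 and at 0.33 to 0.80 for number 3. The mice of each of these numbers share a bead version. For number 2, whose mice lie in different batches, the correlations were -0.53 to -0.06. Since the sign goes with the bead version, these values cannot tell whether same-numbered mice were paired. With the number as a block, 0 were called, Slc6a9 in Astrocytes_1 was at 0.39 and Slc1a4 in neurons at -0.27. Without the mouse block and with the batch term, the difference was 0.41 for Slc1a4.

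The subtypes ranked first and second changed places for some genes, as log2 ratios of their means. For Srr, Fibroblasts over Astrocytes_2 was 0.15, but 1.00 with thinned cells, 1.59 with the deposited size factors, -0.065 with UMIs pooled, and -0.33 (without WT 2) to 0.42 over mice left out. For Psph, Ependymal over Astrocytes_2 was 0.02, but -0.82 thinned, -0.27 with size factors, and -0.073 (without Fmr1-KO 3) to 0.085 over mice left out, -0.062 without WT 1. For Shmt2, Ganglionic over Pericytes was 0.07, but -0.091 thinned, -0.017 with size factors and -0.11 (without WT 3) to 0.23 over mice left out. For Psat1, Oligodendrocytes over Astrocytes_2 was 0.09, and -0.015 (without WT 3) to 0.16 over mice left out. Astrocytes_2 over Astrocytes_1 moved from 0.33 to 0.22 with UMIs pooled for Phgdh, and from 0.22 to 0.53 thinned for Gldc. Keeping the doublets was not run, since the annotation gives them no subtype. One cell per barcode and mouse was an alternative chosen after seeing the data and changed no call. Many levels under about 10 CPM rest on few UMIs, and so do higher levels in subtypes with few cells. Gldc in OPC_2 (87.7 CPM) rested on 23 UMIs and Shmt2 in SVZ cells (22.3 CPM) on 4. Shmt1 in Astrocytes_1 (6.06 CPM) rested on 191.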
